A study of Mus musculus with 28 samples.

Results

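The replication-dependent histone mRNAs are 67 of the 30210 features counted in this series, taken as every feature whose symbol begins with Hist1h, Hist2h, Hist3h or Hist4h. They code for the linker histone H1 (6 members) and the core histones H2A (19), H2B (18), H3 (11) and H4 (13). The RNA was recovered by immunoprecipitation from lysates of mouse embryonic fibroblasts (MEFs) that had been reconstituted with the kinase PKR, and was fragmented before library preparation with a small RNA kit. PKR is activated by double-stranded RNA. The cells carried either PKR with a mutation in each double-stranded RNA-binding motif (RM) or wild-type PKR (WT), and were given 0.1 mM palmitic acid, a saturated fatty acid, or mock treatment. The 4 groups were therefore RM palmitate, RM mock, WT palmitate and WT mock, with 3 libraries per group in each of datasets A and B and 1 library per group in dataset C. The labels call the 3 libraries biological replicates and do not say how many cell clones each PKR form stands for. All groups share the reconstitution and the immunoprecipitation, and no input or control precipitate was analysed here. The amount of a histone mRNA in the cells, its recovery with PKR and background recovery therefore cannot be told apart. In such bulk samples fewer cells in S phase and less RNA per cell cannot be told apart either.

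A count model was fitted to 62 members in dataset A and 63 in dataset B. Hist3h2ba, Hist2h2be and the testis genes Hist1h1t and Hist1h2aa had too few counts in both datasets, and the testis H2B gene Hist1h2ba had too few in dataset A.

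Histone proteins package newly copied DNA, and their replication-dependent genes are short, mostly without introns, and lie in clusters. Their mRNAs do not end in a poly(A) tail but in a conserved stem-loop, which is bound by the stem-loop binding protein Slbp and needed for processing, translation and decay. The mRNAs accumulate while DNA is copied in S phase and are degraded when copying stops.

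The members fell into 8 stretches of the mm9 genome, with a new stretch begun after a gap of over 150000 bases. The Hist1 cluster on chromosome 13 held 55 members. Of these, 18 lay at 21807632 to 21929399, 5 at 22126982 to 22135545, 29 at 23622919 to 23856283, 2 at 24025637 to 24026720, and Hist1h2al lay alone at 51298057 to 51298434. The Hist2 cluster held 9 members on chromosome 3, at 96023839 to 96082924. Hist3h2ba and Hist3h2a lay on chromosome 11 at 58762413 to 58770176, and Hist4h4 lay on chromosome 6 at 136752589 to 136752900, on the minus strand.

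The 3′ stem-loop defines the family, so it is printed for the members that the results turn on. It was searched in the annotated transcripts of GENCODE M21 (GRCm38, matched by symbol for all 67 members) as 16 letters after the stop codon, beginning GG and ending CC, with 6 paired positions and TT at the start of the loop. It was found in 43 of 67 members, 4 of 6 for H1, 11 of 19 for H2A, 10 of 18 for H2B, 7 of 11 for H3 and 11 of 13 for H4. It began 21 to 58 bases after the stop codon, with a median of 31. The sequences are on the sense strand, 5′ to 3′, and capitals mark the stem and loop:
Hist1h4c: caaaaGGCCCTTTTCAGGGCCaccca
Hist1h4h: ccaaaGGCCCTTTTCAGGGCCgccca
Hist1h4d: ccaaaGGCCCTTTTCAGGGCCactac
Hist1h4j: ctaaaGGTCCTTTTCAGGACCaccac
Hist1h3f: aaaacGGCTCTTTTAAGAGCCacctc
Hist1h3b: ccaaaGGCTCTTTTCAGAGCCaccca
Hist1h2ad: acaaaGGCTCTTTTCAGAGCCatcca
Hist1h1c: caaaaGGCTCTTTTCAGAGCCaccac
Hist3h2a: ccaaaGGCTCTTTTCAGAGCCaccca
The core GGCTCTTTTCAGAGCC was carried by 25 members, none of them H4. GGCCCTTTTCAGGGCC was carried by 7 members, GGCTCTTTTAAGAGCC by 6, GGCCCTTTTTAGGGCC by 2, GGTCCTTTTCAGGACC by 2 and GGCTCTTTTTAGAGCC by 1. The cores beginning GGCCC or GGTCC stood in the 11 H4 members and in no member of another class, whose cores all began GGCTC. No such stem-loop was found in the annotated transcripts of Hist1h4a, Hist1h4k and Hist1h2bl, which says only that these letters are not in that annotation.

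Promoter letters differed by class. RefSeq promoters (GRCm38.p6, 250 bases before and 50 after the start) were matched for 60 members and searched on both strands. CCAAT stood in all 6 H1, 17 H2A, 16 H2B and 9 H3 promoters and in 3 of 12 H4 promoters (25.0%), against 37.4% of 32851 promoters of all genes. TATAAA stood in 35 of 60 (58.3%, against 13.6% of all promoters). The octamer ATTTGCAT stood in 7 of 17 H2A and 6 of 16 H2B promoters and in none of the other classes, against 1.74% of all promoters. AAACACA stood in 5 of 6 H1 promoters (83.3%), against 7.18% of all promoters. No motif of these contains another, although matches of TATAAA and AAACACA can share letters, and a match is a description only.

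Members within a class are close copies, which limits how counts can be told apart. Of the 36-base windows of a member's transcript, the median share also found in another member was 2.23% for H1, 78.3% for H2A, 46.7% for H2B, 58.2% for H3 and 44.8% for H4. How the authors' counting treated reads that match several members is not given in the sources used here, so single members of H2A, H2B, H3 and H4 are uncertain. Counts of called members in these classes are uncertain too, because several members may rest on the same reads. Hist3h2a lies within Trim17 on the same strand, Hist2h2aa1 and Hist2h3c1 overlap by 562 bases, and Hist1h2ac overlaps a ribosomal RNA feature.

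The libraries held 254762 to 8036622 counts in dataset A, 2204502 to 7122087 in dataset B and 7462653 to 11658726 in dataset C. RM palmitate replicate 2 of dataset A was by far the shallowest, with 254762 counts and 54 histone counts, and many members at 0. Low scaling factors of 0.82 and 0.637 set apart replicates 2 and 3 of the RM palmitate group in dataset B. All 10 fibroblast markers were detected, with summed levels of 8775 to 12796 CPM, the counts per 1000000 counts of a library, in dataset A and 14958 to 23273 CPM in dataset B. Markers of macrophages and lymphocytes summed to at most 5.83 CPM, with Cd3e at 0 in every library, those of epithelium to at most 13.4 CPM and those of endothelium to at most 8.44 CPM.

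Histone mRNAs took a small share of all counts. In dataset A their share in replicates 1, 2 and 3 was 0.0539%, 0.0212% and 0.0876% in RM palmitate, 0.0418%, 0.0578% and 0.0773% in RM mock, 0.0358%, 0.0559% and 0.0656% in WT palmitate, and 0.0879%, 0.0674% and 0.0453% in WT mock. All 4 groups of dataset A overlapped. In dataset B the share was 0.127%, 0.154% and 0.161% in RM palmitate, 0.144%, 0.118% and 0.139% in RM mock, 0.125%, 0.127% and 0.108% in WT palmitate, and 0.342%, 0.186% and 0.179% in WT mock. The 3 WT mock libraries of dataset B lay above the 9 others of that dataset, and WT mock replicate 1 lay far above replicates 2 and 3. The 95% Wilson interval of that replicate was 0.338% to 0.346%, and that of the shallowest library of dataset A was 0.0162% to 0.0277%. Such intervals cover counting error only. In dataset C the share was 0.179% in RM palmitate, 0.188% in RM mock, 0.112% in WT palmitate and 0.130% in WT mock.

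**Figure D1:**
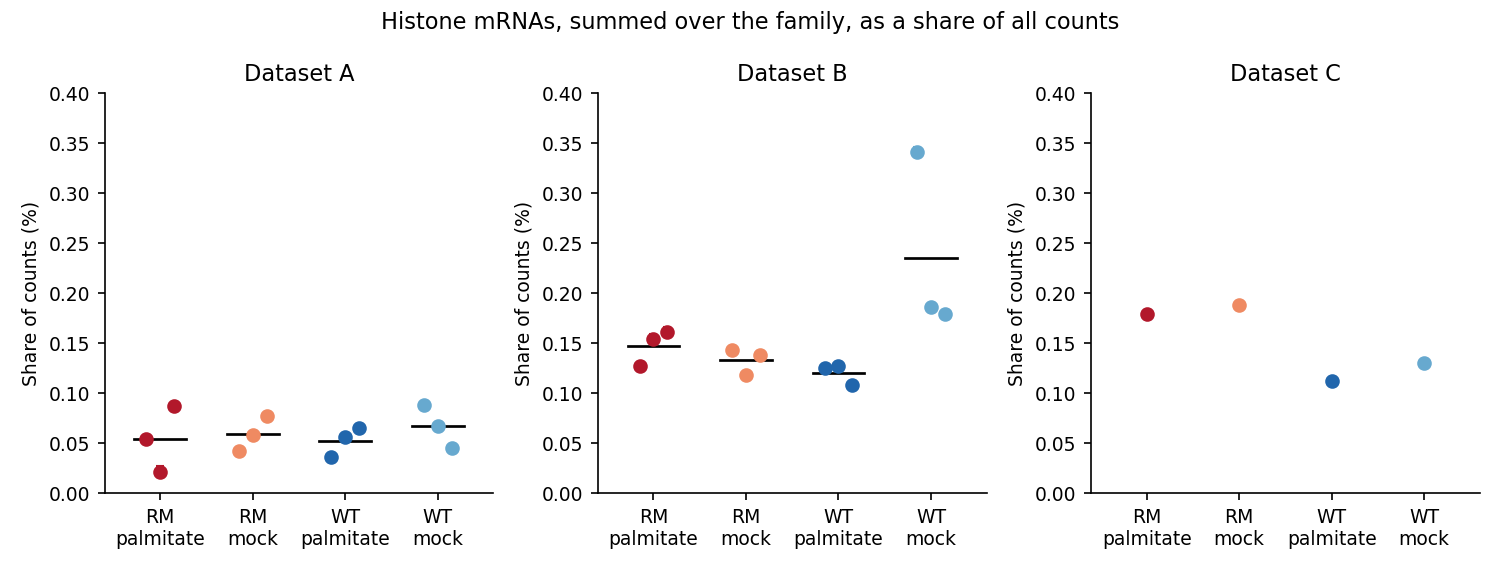
Share of all counts (percent, linear axis) taken by the 67 replication-dependent histone mRNAs in each library of datasets A, B and C, with RM palmitate, RM mock, WT palmitate and WT mock from left to right and lines for the group means in datasets A and B. In dataset B the WT mock libraries, at 0.342%, 0.186% and 0.179%, lie above all others of that dataset, whereas the groups of dataset A overlap. This order is that of raw shares and differs after TMM scaling.

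On the CPM scale after TMM scaling, the sum over members in dataset B was 1896 ± 630 in RM palmitate, 1255 ± 111 in RM mock, 1129 ± 70.0 in WT palmitate and 2158 ± 833 in WT mock (SD, n = 3 each). On this scale the WT mock libraries did not all lie above the others. RM palmitate replicates 2 and 3 had 1885 and 2532 CPM, above WT mock replicates 2 and 3 with 1745 and 1611 CPM. In dataset A the sum was 469 ± 263 in RM palmitate, 536 ± 34.8 in RM mock, 602 ± 147 in WT palmitate and 694 ± 156 in WT mock. The classes did not share this spread equally. In dataset B the H3 sum was 346 ± 91.7 CPM in RM palmitate, 267 ± 27.1 in RM mock, 242 ± 35.96 in WT palmitate and 432 ± 25.1 in WT mock, so that replicates of WT mock lay close together. The H4 sum was 536 ± 228 CPM in RM palmitate, 295 ± 54.4 in RM mock, 239 ± 39.8 in WT palmitate and 625 ± 604 in WT mock. Much of it was 1 gene, Hist1h4d, and without that gene the H4 sum averaged 259, 145, 144 and 257 CPM in the same order of groups. H4 took 41.6% to 47.4% of histone counts over the group means of dataset A and 21.3% to 27.8% over those of dataset B.

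By mean CPM over the 24 libraries of datasets A and B, the 4 highest members of each class were Hist1h1d, Hist1h1b, Hist1h1c and Hist1h1e for H1 (22.6 to 14.9 CPM), Hist2h2aa2, Hist2h2ac, Hist1h2ai and Hist2h2aa1 for H2A (24.7 to 16.5 CPM), and Hist1h2bc, Hist1h2bh, Hist2h2bb and Hist1h2bg for H2B (18.3 to 13.96 CPM). For H3 they were Hist2h3c1, Hist1h3c, Hist1h3f and Hist1h3h (32.4 to 16.03 CPM), and for H4 Hist1h4d with 179 CPM, then Hist1h4h, Hist1h4a and Hist1h4c (25.1 to 20.0 CPM). Of these 20 members, 16 were also among the 4 highest of their class within dataset A and 18 within dataset B. Hist1h1b was the lowest tested H1 member of dataset A (2.55 CPM) and the second highest of dataset B (40.03 CPM).

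Per length, Hist1h4d was the highest member in both datasets. This H4 gene (chromosome 13, 23673467 to 23673859, mm9) averaged 352 CPM per kb over the 12 libraries of dataset A and 566 CPM per kb over those of dataset B. The next in dataset B were the H2A gene Hist2h2aa2 with 79.2 CPM per kb, the H2B gene Hist1h2bh with 71.9, the H3 gene Hist2h3b with 63.2 and the H2A gene Hist2h2ac with 62.0. The class medians in dataset B were 25.1 CPM per kb for H1, 36.03 for H2A, 23.0 for H2B, 34.5 for H3 and 40.8 for H4. In dataset A they were 3.76, 11.5, 6.23, 10.6 and 20.97 CPM per kb in the same order of classes.

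No comparison called Hist1h4d, whose libraries of 1 group lay far apart. In dataset B it had 188, 232 and 410 CPM in RM palmitate, 93.2, 151 and 204 CPM in RM mock, 65.4, 84.4 and 138 CPM in WT palmitate, and 937, 95.8 and 71.2 CPM in WT mock. WT mock replicate 1 lay above every other library, and without it WT mock overlapped WT palmitate and RM mock. The log2 fold change of WT palmitate against WT mock was -1.94 ± 0.95 (SE, adjusted p = 0.208), and 0.21 ± 0.48 without WT mock replicate 1 (adjusted p = 0.827). In dataset A it had 174, 24.1 and 212 CPM in RM palmitate, 166, 157 and 181 CPM in RM mock, 106, 161 and 129 CPM in WT palmitate, and 160, 116 and 71.9 CPM in WT mock. There the shallow RM palmitate replicate 2 was the lowest library, and the groups overlapped. Across the 24 libraries the feature most like Hist1h4d on the log2(CPM + 1) scale was another H4 gene, Hist1h4a (Pearson r = 0.93, 0.89 within dataset A and 0.94 within dataset B), out of 12683 features. It was the 1 histone gene among the 10 most alike, the next 7 of which were features named only as miRNA (r = 0.89 to 0.84). Over the other 62 members tested, r with Hist1h4d had a median of 0.71 in dataset A and 0.52 in dataset B. These libraries share depth and scaling, so the values are descriptions.

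**Figure D2:**
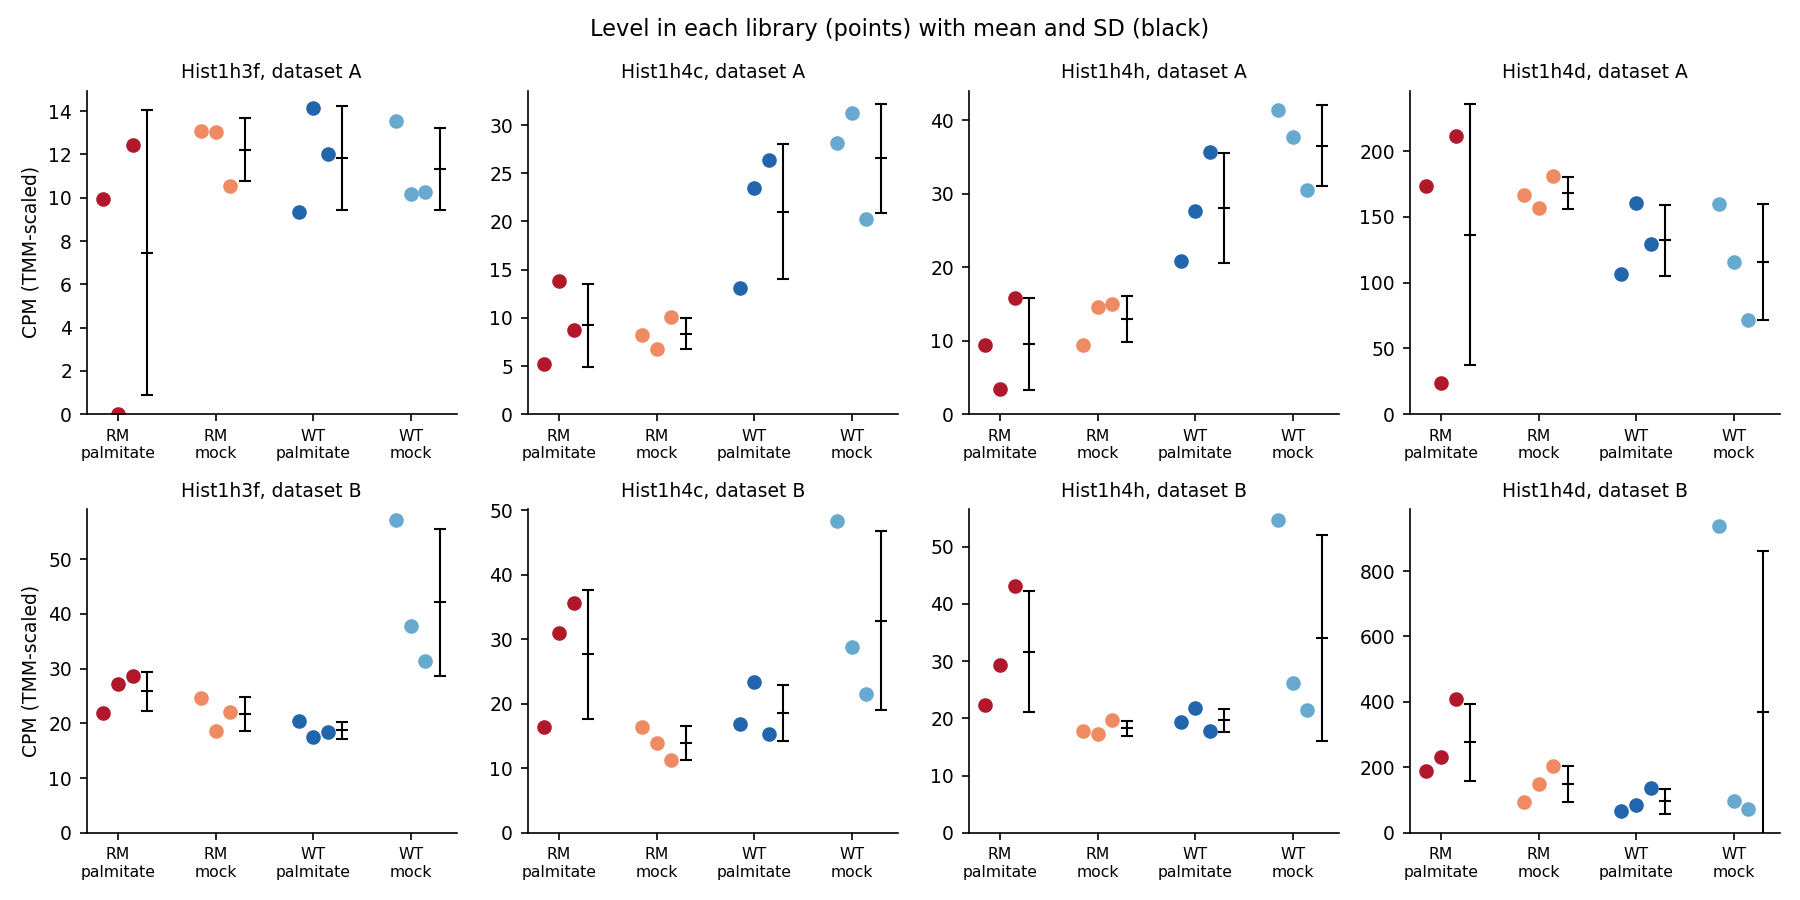
TMM-scaled CPM (linear axes) of Hist1h3f, Hist1h4c, Hist1h4h and Hist1h4d in each library of dataset A (top) and dataset B (bottom), with RM palmitate, RM mock, WT palmitate and WT mock from left to right, points for libraries and black marks for the mean and SD, cut off at 0 for Hist1h4d in WT mock of dataset B. Hist1h4c and Hist1h4h average lower in both RM groups than in both WT groups of dataset A, with 1 RM palmitate library of Hist1h4c at 13.8 CPM just above the lowest WT palmitate library at 13.1 CPM, and Hist1h4d reaches 937 CPM in 1 WT mock library of dataset B.

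Without palmitate in dataset A, 7 histone mRNAs were lower with RM than with WT PKR, and H4 mRNAs were the most frequent among them. The number called lower was 4 of 13 for H4, 2 of 18 for H2A and 1 of 15 for H2B, and edgeR called 0 of 5 for H1 and 0 of 11 for H3 (0 and 3 at an unadjusted p under 0.05, and 0 in both classes with DESeq2). That is 7 of 62 members tested, against 3.03% of all features called lower, and 0 were called higher. The median log2 fold change was -0.58 over the members, with 58 of 62 negative, beside -0.01 over all features. By class the medians were -0.31 for H1, -0.80 for H2A, -0.33 for H2B, -0.41 for H3 and -0.91 for H4. Scaling by total counts moved the median over the members to -0.37 and that of all features to 0.18.

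Hist1h4c, an H4 gene at chromosome 13, 23789929 to 23790323 (mm9, minus strand), had 8.20, 6.81 and 10.1 CPM in RM mock and 28.2, 31.2 and 20.2 CPM in WT mock. All 3 RM mock libraries lay below all 3 WT mock libraries, and the log2 fold change was -1.67 ± 0.27 (adjusted p = 0.000818). Hist1h4h, another H4 gene (chromosome 13, 23622919 to 23623388), had 9.42, 14.6 and 14.97 CPM in RM mock and 41.4, 37.7 and 30.5 CPM in WT mock. Its groups did not overlap either, with a log2 fold change of -1.49 ± 0.26 (adjusted p = 0.00123). Hist1h2ad, an H2A gene (chromosome 13, 23666250 to 23666821), had 4.86, 4.34 and 5.04 CPM in RM mock and 14.1, 13.6 and 9.95 CPM in WT mock. It also showed no overlap, with -1.41 ± 0.26 (adjusted p = 0.00257). These 3 members were called in each of 12 alternatives. The others were Hist1h2ac (-1.28 ± 0.31, adjusted p = 0.0218), the H2B gene Hist1h2bl (-1.26 ± 0.32, adjusted p = 0.0306), and the H4 genes Hist1h4k (-1.34 ± 0.34, adjusted p = 0.0323) and Hist1h4j (-1.18 ± 0.33, adjusted p = 0.0474), which were called in 6, 5, 6 and 3 of 12 alternatives. Leaving out 1 library gave 3 (WT mock replicate 1), 3 (WT mock replicate 2), 9 (WT mock replicate 3), 4 (RM mock replicate 1) or 5 (RM mock replicate 2 or 3) members. Here and below, counts under another setting stand without the share of all features called in that setting, unless it is given. They describe only how the calls depend on the setting.

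The difference was not seen in all H4 genes. Hist1h4d had a log2 fold change of 0.54 ± 0.46 (adjusted p = 0.569), and Hist4h4 on chromosome 6 had -0.29 ± 0.32 (adjusted p = 0.678). The H4 sum without Hist1h4d was 86.3 ± 10.4 CPM in RM mock and 175 ± 38.1 CPM in WT mock, while the sum with it was 255 ± 20.3 CPM in RM mock and 291 ± 82.2 CPM in WT mock. Of the H4 genes called, Hist1h4c and Hist1h4h carry the stem-loop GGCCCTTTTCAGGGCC, as does Hist1h4d, and Hist1h4j carries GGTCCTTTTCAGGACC.

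Under palmitate in dataset A, 2 of 62 members were lower with RM than with WT PKR, and 0 higher, against 2.49% of all features called lower. The count is close to the share over all features. Hist1h4c had 5.18, 13.8 and 8.70 CPM in RM palmitate and 13.1, 23.5 and 26.4 CPM in WT palmitate, and Hist1h4h had 9.39, 3.45 and 15.9 CPM in RM palmitate and 20.8, 27.6 and 35.7 CPM in WT palmitate. The groups overlapped for Hist1h4c through the shallow RM palmitate replicate 2 and did not overlap for Hist1h4h. The log2 fold changes were -1.50 ± 0.31 (adjusted p = 0.00884) and -1.19 ± 0.28 (adjusted p = 0.0213), called in 9 and 7 of 12 alternatives. The count was 0 without RM palmitate replicate 1 and 1 without WT palmitate replicate 2 or 3. The median over the members was -0.06, and scaling by total counts moved it to 0.30 and that of all features to 0.39. The endothelial marker Tek, the 1 of 4 such markers tested, was higher in RM palmitate (2.12 ± 0.44, adjusted p = 0.00887), with summed means of 4.76 CPM in RM palmitate and 0.787 CPM in WT palmitate over the 4 markers, and its part in the result was not tested.

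Palmitate changed no histone mRNA past the threshold in dataset A. With RM, edgeR called 0 of 62 and DESeq2 0, with 2 at an unadjusted p under 0.05 and a median of 0.15 (0.477% of all features called, 13.4% at an unadjusted p under 0.05). With WT, edgeR called 0 of 62 and DESeq2 0, with 6 at an unadjusted p under 0.05 and a median of -0.37 (0.335% of all features called, 11.8% at an unadjusted p under 0.05). The linker histone gene Hist1h1a had the smallest p with WT, with 2.13, 2.83 and 1.72 CPM in WT palmitate and 4.42, 4.86 and 4.67 CPM in WT mock, a difference of -1.03 ± 0.34 (adjusted p = 0.224). For the difference between the palmitate effects with RM and WT, edgeR called 0 and DESeq2 0 of 62, with 10 at an unadjusted p under 0.05, a median of 0.46, and 0% of all features called (4.14% at an unadjusted p under 0.05).

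With WT PKR in dataset B, palmitate lowered 27 of 63 histone mRNAs, and H3 was the class most often lower. The number lower was 10 of 11 for H3, 8 of 16 for H2B, 6 of 18 for H2A, 3 of 5 for H1, and 0 of 13 for H4. Members of a class share sequence, so these counts are not counts of independent members. Of all features 6.12% were lower, and 0 members were higher. All 63 members had a negative log2 fold change, with a median of -0.79 beside -0.05 over all features. The authors' deposited table for this comparison lists 45 of 67 members as lower with palmitate and 0 as higher past its score of 13.01, read here as a false discovery rate of 0.05, against 2.52% of all features lower. The authors' deposited table lists 0 of 67 past that score for palmitate with RM PKR in dataset B and for both palmitate comparisons of dataset A. Its median log2 ratio for palmitate with RM PKR was 0.35 in dataset B and -0.67 in dataset A, where the edgeR median over tested members was 0.15.

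**Figure D3:**
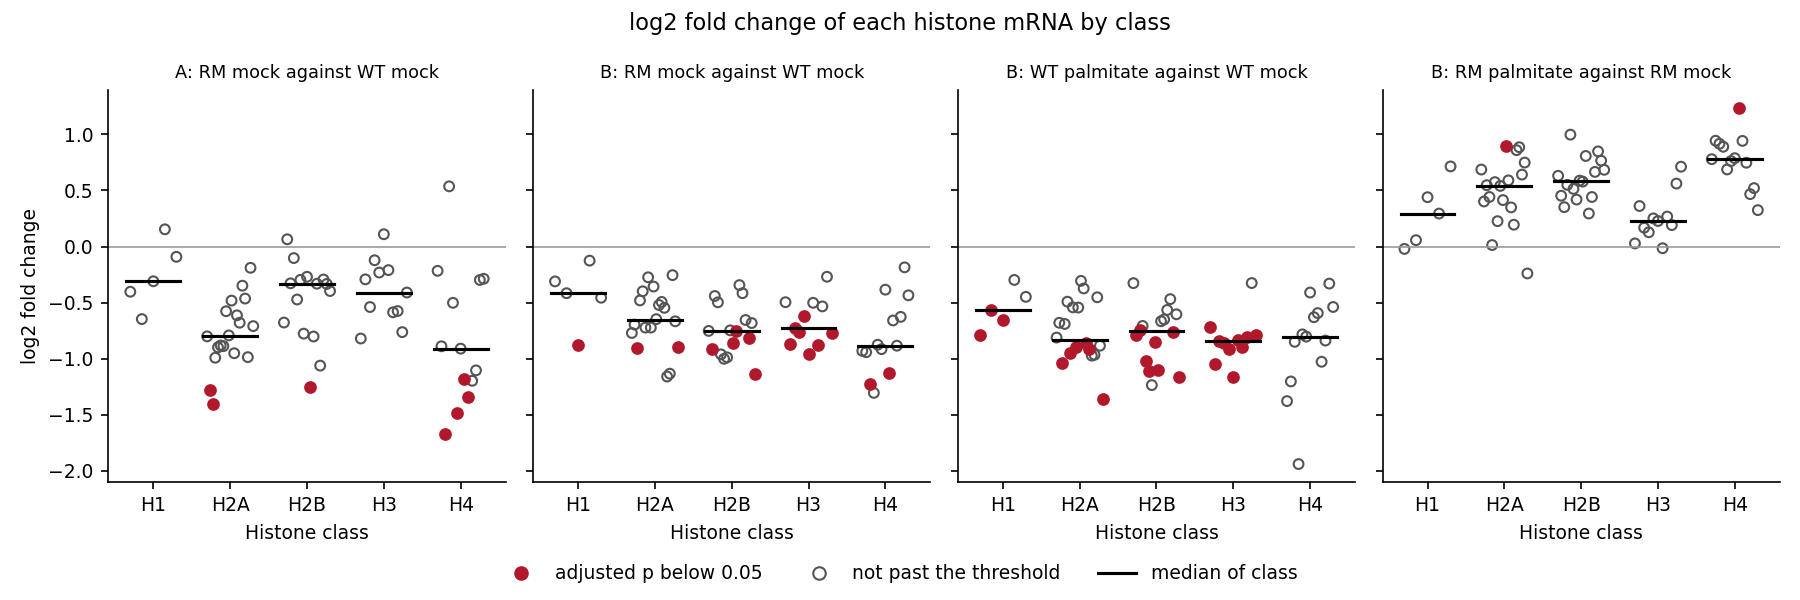
Log2 fold change (edgeR, axis on the log2 scale) of each tested histone mRNA by class for RM mock against WT mock in dataset A, and for RM mock against WT mock, WT palmitate against WT mock and RM palmitate against RM mock in dataset B, with members past an adjusted p of 0.05 marked. In dataset B all 63 members lie below 0 for WT palmitate against WT mock, with 10 of 11 H3 and 0 of 13 H4 members past the threshold.

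Among the H3 genes, Hist1h3f (chromosome 13, 23635921 to 23636924) had 20.5, 17.5 and 18.4 CPM in WT palmitate and 57.2, 37.8 and 31.4 CPM in WT mock. The groups did not overlap, and the log2 fold change was -1.16 ± 0.19 (adjusted p = 0.00127). Hist1h3b (chromosome 13, 23844136 to 23844755) had 21.4, 15.9 and 18.5 CPM in WT palmitate and 44.5, 36.1 and 35.9 CPM in WT mock, likewise without overlap (-1.05 ± 0.18, adjusted p = 0.00137). Hist1h3c had 31.7, 26.8 and 23.2 CPM in WT palmitate and 46.8, 54.3 and 45.3 CPM in WT mock (-0.84 ± 0.15, adjusted p = 0.002). Hist1h3e had 22.6, 15.6 and 17.7 CPM in WT palmitate and 40.5, 34.7 and 31.3 CPM in WT mock (-0.92 ± 0.18, adjusted p = 0.003). In all 4 genes every WT palmitate library lay below every WT mock library, and WT mock replicate 1 was not always the highest. Hist2h3c1, the H3 gene with the highest mean level, fell as well (-0.79, adjusted p = 0.0237).

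The H2A gene Hist3h2a on chromosome 11, which lies within Trim17, had 8.48, 8.60 and 6.35 CPM in WT palmitate and 30.9, 15.5 and 13.0 CPM in WT mock (-1.36 ± 0.27, adjusted p = 0.00444). Hist1h2ad had 18.2, 14.6 and 15.5 CPM in WT palmitate and 45.0, 29.4 and 25.4 CPM in WT mock (-1.04 ± 0.21, adjusted p = 0.00468). Neither gene's groups overlapped, and WT mock replicate 1 was highest in both. The H2B genes Hist1h2bk (-1.10, adjusted p = 0.00694) and Hist2h2bb (-1.16, adjusted p = 0.00932) and the linker histone genes Hist1h1a (-0.79, adjusted p = 0.00575), Hist1h1c (-0.65, adjusted p = 0.0175) and Hist1h1b (-0.57, adjusted p = 0.0216) fell too. Together with the 6 members given with their libraries, all 27 lay between -1.36 and -0.57.

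The H4 genes had values as far below 0 as the other classes, with a median of -0.80, beside -0.84 for H3, but their WT mock libraries lay further apart. The smallest adjusted p of an H4 gene was 0.0763, and 5 of 13 had an unadjusted p under 0.05. DESeq2 called 2 H4 genes lower. Hist1h4c had 16.8, 23.4 and 15.4 CPM in WT palmitate and 48.3, 28.8 and 21.6 CPM in WT mock (-0.85 ± 0.34, adjusted p = 0.121). Hist1h4h had 19.4, 21.9 and 17.9 CPM in WT palmitate and 54.7, 26.2 and 21.4 CPM in WT mock (-0.80 ± 0.34, adjusted p = 0.14). Both genes were highest in WT mock replicate 1, and their groups overlapped. Hist4h4 had a log2 fold change of -0.54 ± 0.26 (adjusted p = 0.161).

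Without WT mock replicate 1 the count was 18 of 63, with 8 of 11 for H3, 4 of 5 for H1, 4 of 18 for H2A, 2 of 16 for H2B and 0 of 13 for H4, and the class medians were -0.86 for H3 and -0.45 for H4. Leaving out another library gave 18 (WT mock replicate 2), 28 (WT mock replicate 3), 19 (WT palmitate replicate 1), 15 (WT palmitate replicate 2) or 8 (WT palmitate replicate 3) members, without the shares over all features in these fits. The 8 members called in each of 12 alternatives were Hist1h3b, Hist1h3c, Hist1h3e, Hist1h3f, Hist1h1a, Hist1h2ad, Hist1h2bk and Hist3h2a. Of the 10 fibroblast markers, Col1a1 was higher in WT palmitate (0.67 ± 0.22, adjusted p = 0.0442) and Pdgfra lower (-0.53 ± 0.13, adjusted p = 0.0108). Over all features 6.12% were lower, and 1175 of 12466 were higher. The markers had summed means of 22368 CPM in WT palmitate and 16978 CPM in WT mock, and their part in the result was not tested.

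Without palmitate in dataset B, 17 of 63 histone mRNAs were lower with RM than with WT PKR, against 6.24% of all features called lower. This comparison and the previous one share the 3 WT mock libraries, so they are not independent. The number lower was 7 of 11 for H3, 5 of 16 for H2B, 2 of 18 for H2A, 2 of 13 for H4 and 1 of 5 for H1, and 0 were higher. All 63 values were negative, with a median of -0.72 beside -0.02 over all features. The linker histone gene Hist1h1c had 24.03, 17.9 and 22.5 CPM in RM mock and 32.4, 39.0 and 47.5 CPM in WT mock (-0.88 ± 0.17, adjusted p = 0.00392). Hist1h3f had 24.7, 18.6 and 21.99 CPM in RM mock (-0.96 ± 0.19, adjusted p = 0.00441), and Hist1h3b had 22.9, 19.8 and 20.97 CPM in RM mock (-0.87 ± 0.17, adjusted p = 0.00458), against the WT mock values given above. In these 3 genes every RM mock library lay below every WT mock library. Hist1h3c (-0.73 ± 0.15, adjusted p = 0.00502), Hist1h2ad (-0.90 ± 0.21, adjusted p = 0.0103) and Hist2h2bb (-1.13 ± 0.25, adjusted p = 0.0109) were lower as well. The 2 H4 genes were Hist1h4j (-1.13 ± 0.30, adjusted p = 0.021) and Hist1h4c (-1.23 ± 0.34, adjusted p = 0.0395), the second with 16.5, 13.9 and 11.3 CPM in RM mock.

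Leaving out 1 library gave 12 (WT mock replicate 1), 13 (WT mock replicate 2), 22 (WT mock replicate 3), 11 (RM mock replicate 1) or 5 (RM mock replicate 2 or 3) members. Without WT mock replicate 1 neither H4 gene was called, and Hist1h4c then had -0.82 ± 0.27 (adjusted p = 0.0752) while H3 had 6 of 11 lower. Scaling by total counts gave 29 members. Of the 10 fibroblast markers, Thy1 was lower in RM mock (-1.004 ± 0.13, adjusted p = 0.000273), and Pdgfrb (0.62 ± 0.10, adjusted p = 0.00153) and Fn1 (0.84 ± 0.23, adjusted p = 0.0213) were higher. Of all features 6.24% were lower and 7.88% higher. The markers had summed means of 21934 CPM in RM mock and 16978 CPM in WT mock. Their part in the result was not tested.

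With RM PKR in dataset B, palmitate raised 2 of 63 histone mRNAs and lowered 0, against 5.08% of all features higher. The count is thus not above the share over all features. Hist1h4j had 6.60, 8.87 and 15.7 CPM in RM palmitate and 3.84, 4.09 and 4.86 CPM in RM mock (1.23 ± 0.34, adjusted p = 0.0409). Hist1h2al, the H2A gene that lies alone on chromosome 13, had 16.9, 26.1 and 40.8 CPM in RM palmitate and 15.2, 12.003 and 16.4 CPM in RM mock (0.90 ± 0.25, adjusted p = 0.0453). The groups did not overlap in either gene, and RM palmitate replicate 3 was highest in both. The median over the members was 0.55, with 60 of 63 positive, but it was -0.07 without RM palmitate replicates 2 and 3, the libraries with low scaling factors. That value rests on 1 RM palmitate library, which the fit assumes to vary like the other groups. Without RM palmitate replicate 1 the count was 31, against 11.3% of all features higher (12 of 16 for H2B, 8 of 18 for H2A, 6 of 13 for H4, 3 of 11 for H3 and 2 of 5 for H1), and it was 0 without RM palmitate replicate 2 or 3, 0 without RM mock replicate 2 or 3, and 1 without RM mock replicate 1. With total counts as the scale the median was 0.13, and the H1 and H3 medians turned to -0.13 and -0.17. The median of all features moved to -0.38, which lies below the medians of the members and of both classes. Among the 10 fibroblast markers, Pdgfra (-0.78 ± 0.13, adjusted p = 0.00432) and Pdgfrb (-0.41 ± 0.11, adjusted p = 0.0296) were lower in RM palmitate, against 2.45% of all features lower. Their part in the result was not tested.

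Under palmitate in dataset B, edgeR called 0 of 63 members between RM and WT PKR, with 32 at an unadjusted p under 0.05, against 7.81% and 25.7% of all features. DESeq2 called 3 members higher, a count that stands without the DESeq2 share over all features. All 63 values were positive, with a median of 0.65, or 0.07 without RM palmitate replicates 2 and 3, and 36 were higher without RM palmitate replicate 1, against 10.2% of all features. Hist2h3c1 had the smallest p, with 54.8, 93.7 and 102 CPM in RM palmitate and 56.5, 49.5 and 43.4 CPM in WT palmitate (0.73 ± 0.22, adjusted p = 0.0579). Its groups overlapped through RM palmitate replicate 1. Among the 10 fibroblast markers, Thy1 was lower with RM (-0.94 ± 0.14, adjusted p = 0.00178), against 451 of 12466 features lower. Its part in the result was not tested.

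The interaction asks whether the palmitate effect differed between RM and WT PKR. In dataset B edgeR called 0 of 63 members, and 0% of all features, with 58 members and 16.1% of all features at an unadjusted p under 0.05. DESeq2 called 26 members higher (8 of 18 for H2A, 7 of 16 for H2B, 5 of 11 for H3, 5 of 13 for H4 and 1 of 5 for H1), against 1.96% of all features higher. All 63 values were positive, with a median of 1.21, which means that the palmitate effect was more positive with RM. Hist1h3b had the smallest p, with 1.41 ± 0.26 (adjusted p = 0.078), followed by Hist1h2ad with 1.59 ± 0.31 and Hist1h3f with 1.39 ± 0.29 (adjusted p = 0.0898 for both). The median was 0.72 without RM palmitate replicates 2 and 3. The count was 47 without RM palmitate replicate 1, against 3.58% of all features higher, and 9 without WT mock replicate 3, and scaling by total counts gave 4, with a median of 0.82 beside -0.35 over all features.

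Called members of dataset B lay in the 3 longest stretches of the Hist1 cluster, in the Hist2 cluster and at Hist3h2a. Hist1h2al was called for palmitate with RM only. For WT palmitate against WT mock, with 6.12% of all features lower, 7 of 18 members tested were lower in the stretch at 21807632 to 21929399, with a median of -0.66, 3 of 5 in the next stretch, with a median of -0.85, and 14 of 28 in the stretch at 23622919 to 23856283, with a median of -0.82. The single members tested in the other Hist1 stretches, Hist1h2ba (-0.33) and Hist1h2al (-0.31), were not called in this comparison. In the Hist2 cluster 2 of 8 were lower, with a median of -0.84. For RM mock against WT mock in dataset A, with 3.03% of all features lower, 3 of 18 were lower in the first of these stretches, with a median of -0.74. In the next, edgeR and DESeq2 called 0 of 5, with 4 at an unadjusted p under 0.05 and a median of -0.88. The count was 4 of 28 in the long one, with a median of -0.37, and edgeR and DESeq2 called 0 of 8 in the Hist2 cluster, with 1 at an unadjusted p under 0.05 and a median of -0.40.

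**Figure D4:**
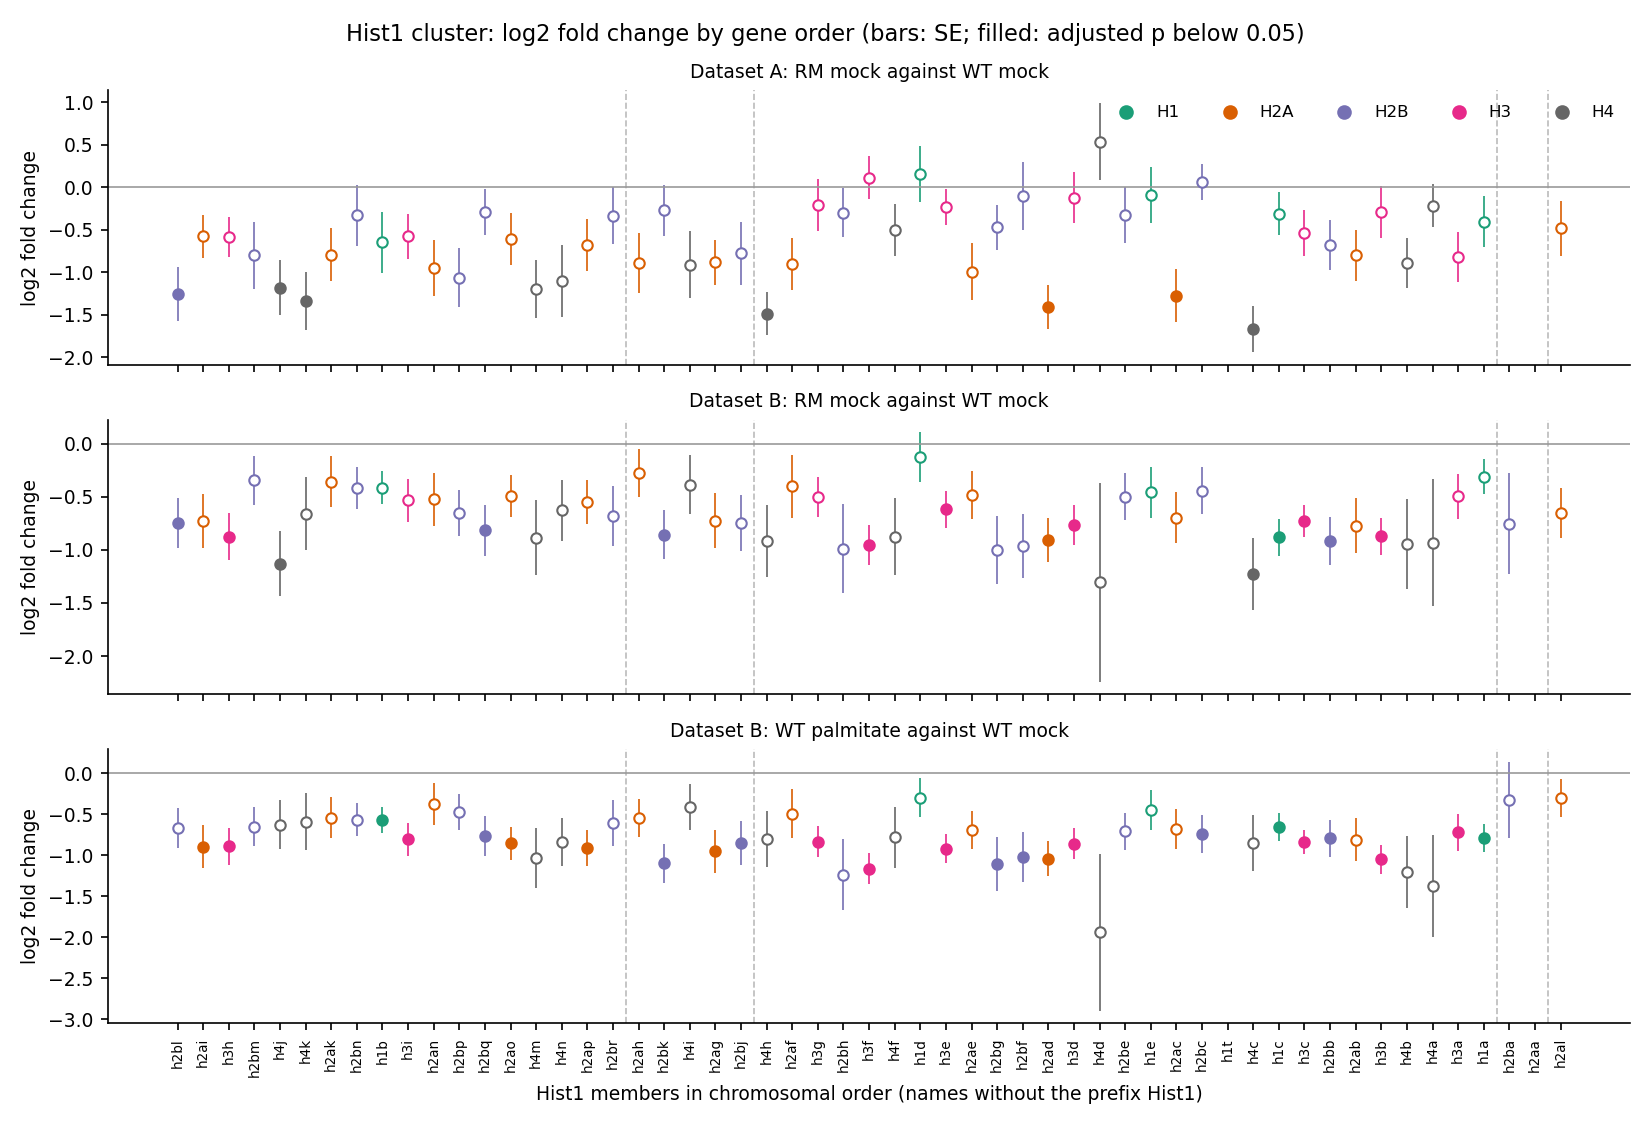
Log2 fold change (edgeR) of the Hist1 members in chromosomal order along chromosome 13, coloured by class, in 3 panels for RM mock against WT mock in dataset A, RM mock against WT mock in dataset B and WT palmitate against WT mock in dataset B. Members of every class lie next to one another, and values below 0 run along the whole cluster in dataset B.

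Datasets A and B were also compared directly. The difference between RM and WT under palmitate was itself different between the datasets for 2 of 63 members, near the 2.99% of all features called. Hist1h4c had a value of -2.04 ± 0.51 (adjusted p = 0.031) and Hist1h4h -1.83 ± 0.48 (adjusted p = 0.0424) for dataset A minus dataset B. In dataset B, Hist1h4c had 16.3, 31.0 and 35.6 CPM in RM palmitate, and Hist1h4h had 22.4, 29.4 and 43.1 CPM in RM palmitate, so that most of these libraries lay above the WT palmitate values given above. For the 3 other contrasts edgeR called 0 of 63 between the datasets, and the number with an unadjusted p below 0.05 was 3 for palmitate with RM, 5 for palmitate with WT and 1 for RM against WT in mock. Of all features 0.00788%, 0.189% and 2.52% were called in these.

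Genes that act in S phase or on histone mRNA were read from chosen lists. Of 28 genes of DNA replication and S phase, 10 fell with palmitate and WT PKR in dataset B and 0 rose, with a median of -0.35, against 6.12% of all features lower. Among them were the cyclin genes Ccne2 (-1.11 ± 0.23, adjusted p = 0.00414) and Ccna2 (-0.57 ± 0.13, adjusted p = 0.00743) and the ribonucleotide reductase gene Rrm2 (-0.69 ± 0.16, adjusted p = 0.00876). With RM PKR 5 fell and 0 rose, with a median of -0.38, against 2.45% of all features lower, among them Rrm2 (-0.73 ± 0.17, adjusted p = 0.0199) and the clamp gene Pcna (-0.57 ± 0.16, adjusted p = 0.0378). For the interaction in dataset B edgeR called 0 of 28, with 2 at an unadjusted p under 0.05. In dataset A edgeR called 0 of 24 for palmitate with WT (median -0.02) and 0 of 24 with RM (median -0.04). In each, 0 had an unadjusted p under 0.05. Of all features 0.335% and 0.477% were called there, with 11.8% and 13.4% at an unadjusted p under 0.05. Between RM and WT in mock, 4 of 28 were lower and 1 higher in dataset B, against 6.24% of all features lower and 7.88% higher. There 1 of 24, Tyms, was lower in dataset A (-1.03 ± 0.28, adjusted p = 0.0443), against 3.03% of all features lower.

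Of the 19 tested genes of histone mRNA transcription, processing and decay, 2 fell with palmitate and WT PKR in dataset B, against 6.12% of all features, so the list's count is close to the share over all features. They were Slbp, whose protein binds the stem-loop (-0.65 ± 0.14, adjusted p = 0.00472), and Eri1, whose exonuclease trims it (-0.42 ± 0.12, adjusted p = 0.0289). Slbp averaged 24.2 ± 4.11 CPM in RM palmitate, 33.9 ± 3.87 CPM in RM mock, 30.6 ± 1.67 CPM in WT palmitate and 48.2 ± 4.76 CPM in WT mock (SD, n = 3 each). Both were also lower in RM mock than in WT mock, Slbp by -0.50 (adjusted p = 0.02) and Eri1 by -0.42 (adjusted p = 0.0293), while Srrt, a partner of the cap-binding complex, was higher (0.43 ± 0.12, adjusted p = 0.0278). Of the 10 replication-independent histone genes tested in dataset B, 2 fell with palmitate and WT PKR, against 6.12% of all features lower. These genes are also made outside S phase, and their mRNAs are mostly polyadenylated. The 2 were H2afz (-0.79 ± 0.15, adjusted p = 0.00345) and H3f3a (-0.81 ± 0.16, adjusted p = 0.00411). In dataset A H3f3a was not called with palmitate and WT PKR and had the other sign (0.73 ± 0.27, adjusted p = 0.282). The same 2 of 10 were lower in RM mock than in WT mock of dataset B (-0.79 and -0.85), against 6.24% of all features lower. For dataset A minus dataset B, H3f3a had 1.59 ± 0.31 for palmitate with WT (adjusted p = 0.0322). It had 1.39 ± 0.31 for RM against WT in mock (adjusted p = 0.0131). Of all features 0.189% and 2.52% were called in these. With RM PKR in dataset B 1 of 10, H2afv, rose with palmitate (0.68 ± 0.15, adjusted p = 0.018), against 5.08% of all features higher. The part of these genes in the histone mRNA values was not tested.

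Dataset C has 1 library per group, so its values are descriptions with no replicate check, and its columns marked t and c were taken as palmitate and mock. Nearly all histone counts there were on the sense strand, 99.84% to 99.95% over the 4 libraries. Hist1h4d had 266 CPM in RM palmitate (exact 95% Poisson interval 257 to 275), 78.8 CPM in RM mock (73.5 to 84.5), 43.5 CPM in WT palmitate (39.0 to 48.4) and 45.8 CPM in WT mock (41.1 to 51.0). It was thus 3.37 times as high in RM palmitate as in RM mock, and 0.95 times as high in WT palmitate as in WT mock. Hist1h3f had 38.0 CPM in RM palmitate, 41.1 in RM mock, 14.9 in WT palmitate and 19.8 in WT mock. Hist1h4c had 20.6 CPM in RM palmitate, 18.3 in RM mock, 18.7 in WT palmitate and 22.6 in WT mock. Over the 64 members with a mean of at least 10 counts, the median log2 ratio was -0.29 for RM palmitate over RM mock and -0.21 for WT palmitate over WT mock, beside 0.19 and 0.28 over 12306 features. For RM mock over WT mock it was 0.54 and for RM palmitate over WT palmitate 0.42, beside 2.42 and 2.32 over all features. These CPM rest on total counts, and the ratios between RM and WT shift with all features.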

How the data were processed

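The authors deposited read counts per annotated feature for 28 libraries. The submitters' processing notes name CASAVA 1.7.0 and 1.8.2, Novoalign and mm9, while the sources used here give neither the Novoalign version nor the use of strand in datasets A and B. The authors' deposited tables also hold a log2 ratio and a score per comparison, and 52 other columns of per-sample values were not used. Groups came from the labels.

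Datasets A and B were fitted separately, all 4 groups together, with edgeR 4.0.16 in R 4.3.3 (TMM scaling, filterByExpr, quasi-likelihood test, Benjamini-Hochberg adjustment over all features tested, threshold 0.05), and together for dataset A minus dataset B. Every ± beside a log2 fold change is the SE, and every adjusted p not credited otherwise is from these fits. CPM are TMM-scaled in datasets A and B and per total count in dataset C. The other settings were RLE and total-count scaling, no low-count filter, DESeq2 1.42.0, a fit of the compared groups alone, the replicate number as a block, and leaving out libraries. Each is counted as 1 alternative.

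Members named are the 4 with the highest mean level per class, those past the threshold (with values per library for up to 6 of the smallest p) and those of Hist3 and Hist4. Other members were named after their values were seen. The members and lists were chosen with earlier results of these data known. The fit was tested on simulated data with 200 changed features per dataset.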

Additional observations from a re-analysis of the deposited data

Results flagged for a closer look

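The difference between RM palmitate and WT palmitate was not the same in datasets A and B for 2 H4 genes. That is 2 of 63 members, near the 2.99% of all features called in this contrast. In a fit of 24 libraries, Hist1h4c had a value of -2.04 ± 0.51 (SE, adjusted p = 0.031) for dataset A minus dataset B. It was negative in each of 17 alternatives, with an adjusted p of 0.00495 to 0.138, and called in 7 of them. Hist1h4h had -1.83 ± 0.48 (adjusted p = 0.0424), with an adjusted p of 0.00747 to 0.145 over its alternatives, called in 5 of 17. For both genes the highest adjusted p came without RM palmitate replicate 1 of dataset A. The datasets also differ in depth and in the mark 2hr on the columns of dataset B, and the part of either in these values was not tested.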

How the results depend on the processing

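The 57 calls, in 34 members, kept their sign in every alternative run, and 15 of them stayed past the threshold in each. Counts of called members changed more. The share of all features called can change with the setting too. For palmitate with RM in dataset B it went from 5.08% to 11.3% higher without RM palmitate replicate 1. The counts below stand without that share and describe only how the calls depend on the setting. For RM mock against WT mock in dataset A (7) the count was 3 with total counts, 14 with no low-count filter, 3 with DESeq2, 18 with the compared groups alone, and 3 to 9 without 1 library. For RM against WT under palmitate in dataset A (2) it was 0 with total counts, 0 with the compared groups alone, and 0 to 2 without 1 library. For palmitate with RM in dataset B (2) it was 0 with total counts, 4 with no filter, 4 with DESeq2, 1 with the compared groups alone, 0 without RM palmitate replicates 2 and 3 (1 library left), and 0 to 31 without 1 library. For palmitate with WT in dataset B (27) it was 8 to 28 without 1 library. For RM mock against WT mock in dataset B (17) it was 29 with total counts and 5 to 22 without 1 library. For RM against WT under palmitate in dataset B (0) it was 2 with no filter, 3 with DESeq2, and 0 to 36 without 1 library. For the interaction in dataset B (0) it was 4 with total counts, 13 with no filter, 26 with DESeq2, and 0 to 47 without 1 library. Between datasets, it was 1 with no filter for palmitate with WT (0 to 1 without 1 library), 2 with no filter for RM against WT in mock (0 to 2), and 0 with total counts and 0 with no filter for RM against WT under palmitate (0 to 6). The cause of these changes was not tested.

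Same-numbered libraries had correlations of -0.22 to 0.32 between their deviations. Libraries with different numbers were not set beside them, so these values cannot decide whether same-numbered libraries pair. With the replicate number as a block the count was 1 for palmitate with RM in dataset B, 2 for the interaction there and 0 for RM against WT under palmitate between datasets. It was 18 for palmitate with WT and 14 for RM mock against WT mock in dataset B, and 6 for RM mock against WT mock in dataset A.

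As a share of raw counts, the summed level was 589.8 CPM in RM mock of dataset A and 1203 CPM in WT palmitate of dataset B. Low histone counts limit dataset A most, where the shallowest library held 54 of them.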
